A study of Mus musculus with 4 samples.

Results

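The cells described here are the testis germ cells of both genotypes with the highest level of 8 genes of cell division, and they were selected on measured values. The cells of 5 libraries were pooled, and those with at least 2000 unique molecular identifiers (UMIs, each a tagged transcript) were kept. A score was the UMIs of Mki67, Top2a, Ccnb1, Ccna2, Aurkb, Kif23, Nusap1 and Prc1 divided by all UMIs of the cell. The top 10% by score comprised 117 of the 1167 cells kept, out of 1249 cells in all. They are called high-score cells and were compared with the 584 cells in the lower 50% of the score, called low-score cells. The 466 cells in between entered neither side.

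All cells came from testes of 4-week-old mice that carried the allele tm1.1(icre/ERT2)Reb of Eomes on a B6N.Cg background. In both genotypes this was the Eomes-iCreERt2-tdTomato knock-in, in which a red fluorescent reporter is expressed from the Eomes locus. They were either Plzf +/+ or Plzf lu/lu, lu being the luxoid mutation of Plzf (Zbtb16), which encodes a zinc finger transcription factor needed for maintenance of spermatogonial stem cells. Single tdTomato+ cells were sorted into 384-well plates, so that cells without the reporter were not sampled in either genotype. Plzf +/+ cells filled plates 1 and 2, Plzf lu/lu cells filled plate 3, and plate 4 was divided between the genotypes. The labels name no animals, so the 3 Plzf +/+ and 2 Plzf lu/lu libraries may share mice, and the p-values measure only the spread between libraries. The plate and the genotype can be told apart on plate 4 only, where the Plzf lu/lu library had 38 cells.

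Spermatogonia, the germ cells at the base of the testis tubule, divide by mitosis both to renew stem cells and to build the chains of cells that later enter meiosis. Genes of the cell cycle are transcribed in waves. In S phase DNA is copied and the clustered histone genes are transcribed to package it. In G2 and M phase cyclin B with the kinase CDK1 drives entry into mitosis, the kinetochores attach chromosomes to the spindle, and the anaphase-promoting complex then marks cyclin B for destruction. In the promoters of many late genes a CHR element (TTTGAA) is bound by the MuvB complex, which acts as a repressor in resting cells and as an activator with B-MYB and FOXM1 in dividing cells, and CCAAT boxes are bound by NF-Y.

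The promoters of 2 genes of the score and of 3 further genes of mitosis are shown first, because these motifs had a higher share in the lists of mitotic genes than in all promoters. The 120 bases before the RefSeq transcription start (build GRCm38.p6) are given 5′ to 3′ along the gene's strand, and capitals mark TTTGAA or its reverse complement TTCAAA and CCAAT or its reverse complement ATTGG. Mki67 and Top2a are genes of the score, whereas Cdk1, Cdc20 and Ube2c are not. The windows were chr7:135716380-135716499 on the minus strand for Mki67, chr11:99024190-99024309 on the minus strand for Top2a, chr10:69352913-69353032 on the minus strand for Cdk1, chr4:118437344-118437463 on the minus strand for Cdc20 and chr2:164769809-164769928 on the plus strand for Ube2c.
Mki67: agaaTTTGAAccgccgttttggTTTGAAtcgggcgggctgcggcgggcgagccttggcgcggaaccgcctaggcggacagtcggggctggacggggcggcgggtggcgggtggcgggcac
Top2a: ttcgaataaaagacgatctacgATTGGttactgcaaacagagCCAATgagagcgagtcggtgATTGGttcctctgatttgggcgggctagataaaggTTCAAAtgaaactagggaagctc
Cdk1: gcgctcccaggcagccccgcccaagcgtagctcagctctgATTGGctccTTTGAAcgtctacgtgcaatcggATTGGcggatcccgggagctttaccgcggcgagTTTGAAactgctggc
Cdc20: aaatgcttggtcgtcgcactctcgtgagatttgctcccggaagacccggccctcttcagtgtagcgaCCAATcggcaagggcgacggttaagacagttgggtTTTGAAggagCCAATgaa
Ube2c: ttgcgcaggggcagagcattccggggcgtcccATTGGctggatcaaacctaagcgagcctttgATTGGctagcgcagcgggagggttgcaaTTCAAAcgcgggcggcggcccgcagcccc
These 5 were picked from 10 genes for their matches to the CHR letters. The same window of Ccnb1, Kif23, Nusap1 and Plk1 held no CHR match, and that of Nusap1 held neither motif. Over the full window of 250 bases before to 50 after the start, on both strands, TTTGAA was found in 20.2% of the promoters of 27025 gene symbols and in 13.7% of the promoters of the 4385 tested genes that had one. It was found in 8 of 14 promoters (57.1%) of mitotic kinases, cyclins and phosphatases, in 21 of 24 (87.5%) of spindle and cytokinesis genes and in 9 of 17 (52.9%) of kinetochore and centromere genes. In DNA replication genes the share was 4 of 31 (12.9%). CCAAT was found in 41.1% of all promoters, in 13 of 14 (92.9%) of the kinase list, in 16 of 24 (66.7%) of the spindle list, in 11 of 17 (64.7%) of the kinetochore list and in 21 of 31 (67.7%) of the replication list. The 3 mitotic lists thus had a higher share with the CHR letters than the replication list, while for CCAAT the spindle and kinetochore lists were close to it and the kinase list was above it, as a description of sequence with no test. Of the score genes, 6 had an entry, and 4 of these 6 held the CHR letters. Ccna2 and Aurkb were not matched.

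High-score cells were found in every library. They made up 40 of 307 cells in Plzf +/+ plate 1 (13.0%, exact binomial 95% interval 9.47 to 17.3), 27 of 276 in Plzf +/+ plate 2 (9.78%, 6.55 to 13.9) and 31 of 251 in Plzf +/+ plate 4 (12.4%, 8.55 to 17.1). They made up 16 of 304 in Plzf lu/lu plate 3 (5.26%, 3.04 to 8.41) and 3 of 29 in Plzf lu/lu plate 4 (10.3%, 2.19 to 27.4). The library with the lowest share was thus a Plzf lu/lu one, but the 2 genotypes overlapped, since the plate 4 Plzf lu/lu library lay above Plzf +/+ plate 2. The mean share was 11.7% ± 1.71 (SD, n = 3 libraries) in Plzf +/+ and 7.80% ± 3.59 (SD, n = 2) in Plzf lu/lu, a difference of -3.92 percentage points (two-sided exact permutation test over libraries, p = 0.3, where 0.1 is the smallest p this design allows). Over cells, 98 of 834 Plzf +/+ cells (11.8%, 9.64 to 14.1) and 19 of 333 Plzf lu/lu cells (5.71%, 3.47 to 8.77) were high-score cells; these intervals cover counting error only and not the spread between libraries. Scored on 2000 UMIs drawn from each cell, the difference was -0.646 points, and without Plzf lu/lu plate 3 it was -1.38 points. Without Plzf lu/lu plate 4 it was -6.46 points. The genotypes did not overlap there, without Plzf +/+ plate 2 (-4.89 points), or under 4 other settings. These were the top 5% (-3.40 points, exact permutation p = 0.2), the top 20% (-7.45, p = 0.1), at least 4000 UMIs per cell (-8.10, p = 0.1) and without cells with over 2% of UMIs from markers of other cell types (-5.71, p = 0.2).

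**Figure D1:**
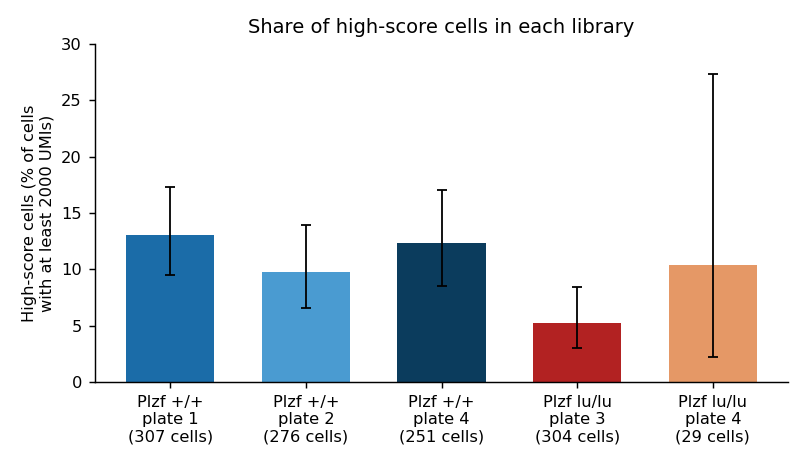
High-score cells as a percentage of cells with at least 2000 UMIs in each of the 5 libraries, with exact binomial 95% intervals. Plzf lu/lu plate 3 lies lowest at 5.26%, and the interval of Plzf lu/lu plate 4, with 29 cells, spans those of all the other libraries.

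The score ran from 2314.62 to 7549.36 UMIs per 1000000 UMIs of the cell in high-score cells (median 3011.65) and from 0 to 512.558 in low-score cells (median 207.298), of which 193 held no UMI of the 8 genes. There was no gap at the limit. The last cells inside it scored 2332.63, 2315.71 and 2314.62, and the first outside scored 2308.14, 2300.36 and 2289.72. A high-score cell held between 7 and 63 UMIs of the 8 genes (median 23), and 91 of the 117 cells held 6 or more of the 8 genes. High-score cells also held more transcripts, with a median of 7272 UMIs and 3493 genes per cell against 5834.5 UMIs and 2922 genes in low-score cells, and the part of depth in the differences was not tested. In Plzf lu/lu plate 3 the order was the reverse, with medians of 5093 UMIs and 2589 genes against 6262 and 2913, while the other 4 libraries had the pooled order.

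Of the 8 score genes, Ccnb1 (cyclin B1) gave 24.2% of the score's UMIs in high-score cells, Top2a (the topoisomerase that untangles sister chromatids) gave 21.7% and Mki67 (the proliferation antigen Ki-67 that coats mitotic chromosomes) gave 19.4%. Because these genes chose the cells, their levels are given with no test. Levels of single genes are given as CPM, the UMIs of the gene per 1000000 UMIs of the summed cells of a library, with library totals scaled by edgeR's TMM factors, and libraries are listed as Plzf +/+ plates 1, 2 and 4, then Plzf lu/lu plates 3 and 4. Mki67 was at 669, 552, 765, 385 and 234 CPM in high-score cells and at 9.05, 4.62, 12.1, 20.5 and 18.1 in low-score cells. Ccnb1 was at 775, 582, 832, 1082 and 703 against 55.4, 72.8, 57.2, 78.5 and 90.6. The classes did not overlap for either gene. Aurkb, the kinase of the chromosomal passenger complex, was the sparsest: 51.3% of high-score cells held a UMI of it, against 97.4% for Top2a. Kif23, Nusap1 and Prc1, which act on the spindle midzone and in cytokinesis, were detected in 73.5%, 62.4% and 79.5% of high-score cells and in 18.7%, 8.05% and 13.0% of low-score cells.

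**Figure D2:**
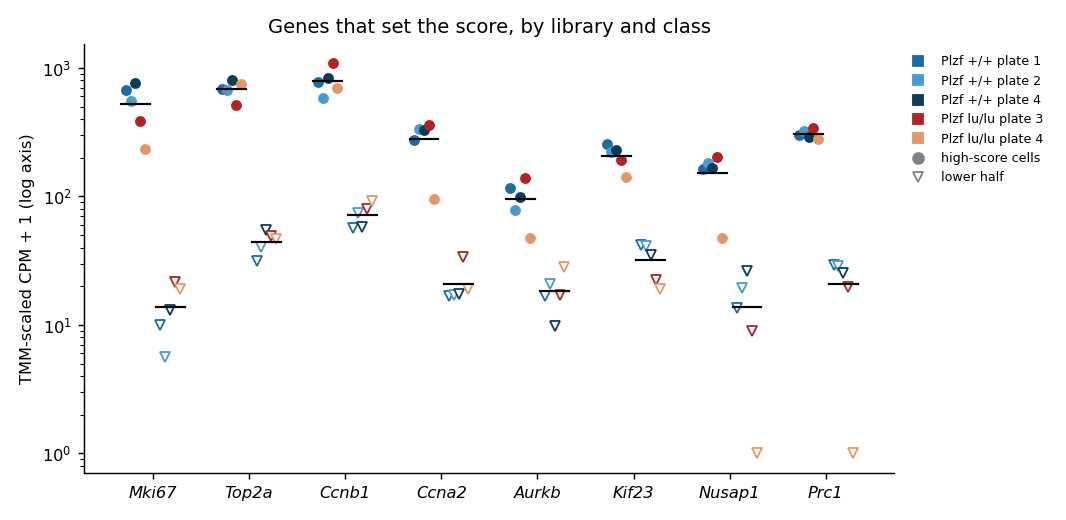
Level of each of the 8 score genes as TMM-scaled CPM plus 1 on a log axis, in high-score cells (circles) and low-score cells (triangles); each point is 1 library and bars are means. The genes chose the cells, so the separation is a property of the choice.

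The other genes were not used by the score, although they were counted in the same cells and share their depth. They were tested on UMIs summed per library and class, with the library as a term (edgeR quasi-likelihood test, Benjamini-Hochberg adjusted p under 0.05 over 5960 genes tested). The p-values describe how constant the difference was over the 5 libraries. Of all genes tested, 524 were higher in high-score cells (8.79%) and 511 were lower (8.57%), and the median log2 difference was -0.03. DESeq2 called 282 higher and 323 lower. Without Plzf +/+ plate 2 there were 321 and 300, and without Plzf +/+ plate 4 there were 337 and 341. Genes of mitosis and histone genes led the higher genes. Of the fixed lists, 14 of 15 tested mitotic kinases, cyclins and phosphatases were higher (median log2 difference 1.57), as were 18 of 19 spindle and cytokinesis genes (1.76) and 19 of 22 kinetochore and centromere genes (1.41). None of these genes was lower. The filter on low counts drops genes absent from small sums. Without it the counts were 13 of 18, 24 of 28 and 20 of 23. For the top 5% they were 5 of 5, 10 of 11 and 7 of 10. The 15 genes with the largest difference among those passing with the same direction in each library of at least 5 high-score cells were the histone genes Hist2h2bb (4.06), Hist1h3b, Hist1h3c, Hist1h2ab, Hist1h2ae and Hist1h1a, with Fbxo5, Hmmr, Ube2c, Plk1, Birc5, Cdk1, Lrr1, Gm12260 and 2810417H13Rik, the last encoding a PCNA-associated factor.

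Cdk1, the kinase that starts mitosis, was at 192, 246, 196, 339 and 187 CPM in high-score cells and at 30.6, 22, 31.9, 74.9 and 45.3 in low-score cells. Every high-score value lay above every low-score value, and the log2 difference was 2.65 ± 0.20 (SE, edgeR adjusted p = 6.26e-26). Plk1, a kinase of spindle assembly and mitotic entry, was at 109, 103, 122, 220 and 141 against 5.66, 27.7, 24.2, 21.4 and 9.06. It differed by 2.83 ± 0.27 on the log2 scale (edgeR adjusted p = 8.23e-18) and was highest in Plzf lu/lu plate 3. Ccnb2, the second B-type cyclin, was at 348, 328, 287, 413 and 234 against 53.2, 89.0, 104, 98.1 and 54.4 (log2 difference 2.01 ± 0.17, edgeR adjusted p = 2.35e-23). Aurka, the kinase of the spindle poles, and Bub1, a checkpoint kinase, were higher by 1.97 and 1.62. Cdc25c, a phosphatase that activates CDK1, did not pass the test, with a log2 difference of 0.57.

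Among spindle genes, Hmmr, which binds microtubules near the poles, was at 100, 142, 181, 119 and 234 CPM against 15.8, 24.3, 15.4, 10.7 and 18.1. The groups did not overlap, and the log2 difference was 3.04 ± 0.27 (edgeR adjusted p = 4.48e-21). Kif11, the motor that pushes spindle poles apart, was higher by 2.47 ± 0.21, Tpx2, which nucleates spindle microtubules, by 2.41 ± 0.24, Kif4 by 2.58 and Aspm by 2.26. Ckap5, a microtubule polymerase used throughout the cycle, was the 1 tested member that did not pass, with a log2 difference of 0.18.

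Among kinetochore genes, Birc5 (survivin, a partner of Aurkb) was at 227, 237, 275, 321 and 46.9 CPM against 41.9, 38.2, 33.0, 43.7 and 36.3. It differed by 2.69 ± 0.20 (edgeR adjusted p = 5.91e-28), although the value of Plzf lu/lu plate 4 rested on 1 UMI. Cenpf, a large protein of the outer kinetochore, differed by 1.78 ± 0.12 and had the smallest p of all genes tested (edgeR adjusted p = 1.56e-32). Cenpa, the histone variant that marks centromeres, was higher by 1.69, Spc25 by 2.21 and Casc5 by 2.43. Zwint, also a kinetochore protein, was at 292, 263, 220, 312 and 187 in high-score cells and at 265, 284, 225, 330 and 299 in low-score cells. Its classes overlapped, with a log2 difference of -0.04 (edgeR adjusted p = 0.94). Mad2l1, a checkpoint protein, did not pass either, at 0.45 (edgeR adjusted p = 0.06).

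Of the genes of the anaphase-promoting complex and of anaphase, 5 of 17 tested were higher (median 0.21), set against 8.79% of all genes. From 4000 UMIs per cell 2 of 16 were higher, for the top 5% 2 of 11 and with all other cells as the comparison 3 of 17. Its substrate adaptor Cdc20 was at 215, 241, 287, 330 and 234 CPM against 58.8, 55.5, 70.4, 54.4 and 54.4 (log2 difference 2.13 ± 0.18, edgeR adjusted p = 4.56e-23). Its ubiquitin-conjugating enzyme Ube2c was at 206, 220, 334, 321 and 187 against 28.3, 30.1, 47.3, 33.9 and 27.2 (2.93 ± 0.20, edgeR adjusted p = 3e-31). Its inhibitor Fbxo5 was at 64.9, 94.9, 70.6, 82.5 and 46.9 against 4.53, 5.78, 7.70, 8.03 and 0, a log2 difference of 3.57 ± 0.34. For none of these 3 genes did the classes overlap, although the Fbxo5 value of Plzf lu/lu plate 4 rested on 1 UMI. Fbxo5 also passed the filter through high-score cells. Espl1 (separase) was higher by 0.99 and the core subunit Anapc5 by 0.50. The adaptor Fzr1 had a log2 difference of 0.60 and did not pass (edgeR adjusted p = 0.0861), and Pttg1 (securin, which holds separase until anaphase) had a log2 difference of 0.10 and did not pass. Condensin and cohesin genes, which shape and hold chromatids, were higher for 9 of 17 (median 0.54), with Smc4 at 1.21 and the condensin subunit Ncapg at 1.63. None of 9 tested transcription regulators of the cycle passed in either direction (median 0.16).

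**Figure D3:**
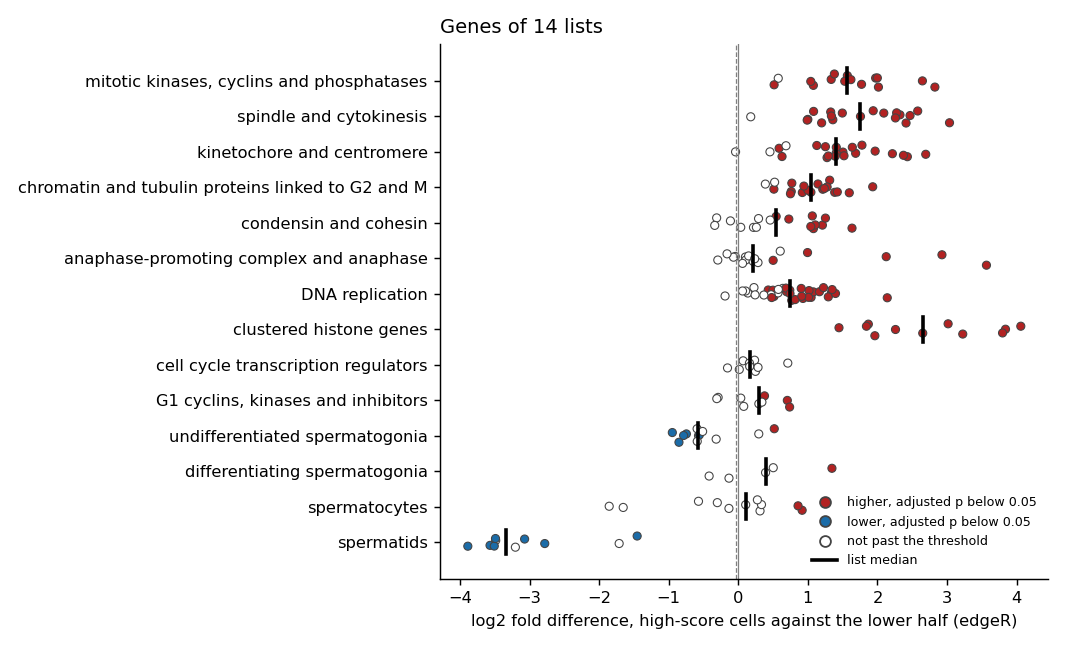
Log2 difference between high-score and low-score cells for each tested gene of the fixed lists, with list medians as bars and genes past the threshold filled. The spindle, kinase and kinetochore lists have medians of 1.76, 1.57 and 1.41, the replication list 0.74 and the spermatid list -3.35. The median of all genes tested was -0.03, and spermatid genes passed the filter largely through low-score cells.

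High-score cells were not restricted to genes of G2 and M. Of 35 tested DNA replication genes, 24 were higher (median 0.74), set against 8.79% of all genes. With all other cells as the comparison 11 of 36 were higher (median 0.39), for the top 5% 11 of 26 and with DESeq2 17 of 35. Prim1, the catalytic subunit of primase, was at 245, 306, 161, 275 and 234 CPM against 64.5, 37.0, 44.0, 78.5 and 63.4, and its classes did not overlap (log2 difference 2.14 ± 0.19, edgeR adjusted p = 1.21e-21). Pcna, the sliding clamp of DNA polymerase, was at 855, 944, 573, 697 and 281 against 351, 314, 302, 417 and 372. It was lower in 1 of the 5 libraries, Plzf lu/lu plate 4, where it rested on 6 UMIs, and differed by 1.08 ± 0.13 (edgeR adjusted p = 1.74e-10). Mcm6, a subunit of the replicative helicase, was higher by 1.05, and Gmnn (geminin, which prevents a second round of replication) by 1.22. Of 69 clustered histone genes 11 were tested, and all 11 were higher (median 2.65), set against 8.79% of all genes. Members at low levels in low-score cells, such as Hist1h3b, passed the filter through high-score cells, so this share was in part set by the filter. With all other cells as the comparison 14 of 18 were higher (median 1.21), and for the top 5% 1 was tested. Hist1h3b was at 127, 164, 181, 91.7 and 93.7 against 7.92, 6.94, 7.70, 16.1 and 9.06, without overlap (3.84 ± 0.29, edgeR adjusted p = 1.66e-26). Without the filter 36 of 66 histone genes were higher. Near-identical histone and tubulin genes can share reads, so single members are uncertain.

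Of chromatin and tubulin genes linked to G2 and M, 17 of 19 were higher (median 1.04), among them Hmgb2, a DNA-bending protein, at 1.93 ± 0.13 and Tubb4b, a beta-tubulin, at 1.42 ± 0.11. For the top 5% 11 of 15 were higher, and with all other cells as the comparison 11 of 18. Of 9 tested genes of G1, 3 were higher (median 0.29). Ccnd1 (cyclin D1) differed by 0.70, Cdk4 by 0.38 and the inhibitor Cdkn1c by 0.74, while Ccnd2 had a log2 difference of -0.29 and did not pass (edgeR adjusted p = 0.21). None of these 3 calls was made by DESeq2. Of the 70 tested ribosomal protein genes 4 were higher and 13 lower (median -0.07), and of 10 mitochondrial genes 1 was lower, set against 8.79% higher and 8.57% lower over all genes, so these counts are not read as a result about either group.

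The label of mitotic cells was checked against these lists. The markers of mitosis were high in every library, but so were the replication and histone genes, and cells in S phase were not separated from cells in G2 and M by the score. In single cells the clustered histone genes had a median of 2678 CPM, here with no TMM scaling, in high-score cells, 1134 in the middle cells and 633 in low-score cells. Replication genes had medians of 6952, 6311 and 3760. The median of replication genes in high-score cells lay below 46.8% of the middle cells and below 10.1% of low-score cells. By library the order of high-score and middle cells was not constant, with medians of 8569 against 7034 in Plzf +/+ plate 1 and of 6109 against 7690 in Plzf lu/lu plate 3. For kinetochore genes the median of the middle cells was 3129 CPM, against 5394 in high-score and 2155 in low-score cells.

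**Figure D4:**
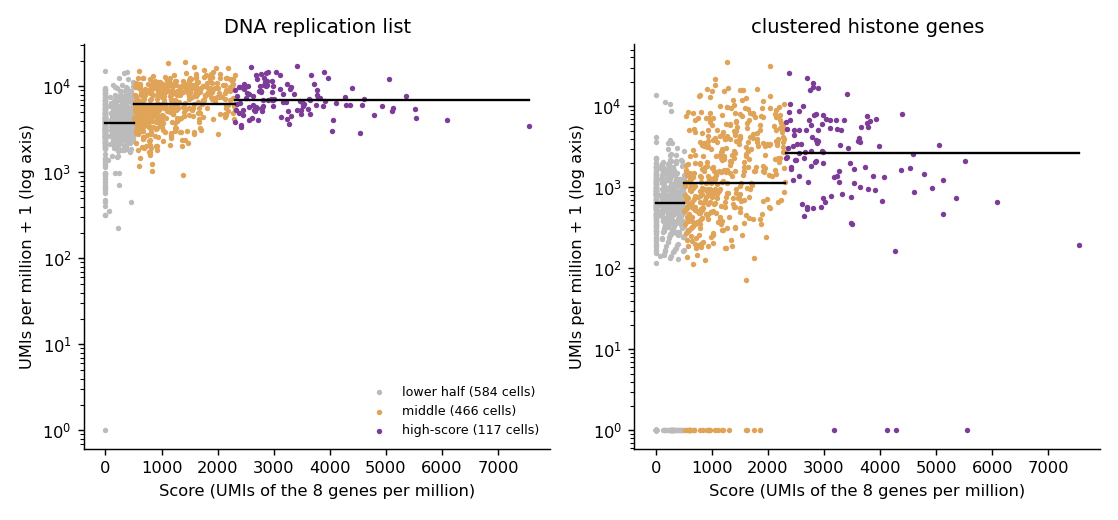
CPM plus 1 (log axis, no TMM scaling) of the replication list and of clustered histone genes against the score, for each cell, with the class medians as black lines. Histone genes have medians of 2678, 1134 and 633 in high-score, middle and low-score cells, and replication genes 6952, 6311 and 3760.

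Levels also varied among the 117 high-score cells. Histone and replication levels had a Spearman correlation of 0.48 over these cells, and of 0.34 to 0.67 in the 4 libraries with at least 15 of them. This is a description over cells that share libraries, and both levels share their denominator, the UMIs of the cell. The cells were then split at their median histone level into 59 histone-rich and 58 histone-poor cells. Histone-poor cells held more Ccnb1 (1083 against 508 unscaled CPM), Cdc20 (372 against 150), Ube2c (385 against 142) and Plk1 (167 against 87.0). Histone-rich cells held more Pcna (975 against 561), Mcm6 (401 against 178) and Rrm2, a subunit of the enzyme that makes deoxynucleotides (160 against 57.2). Among score genes, which chose the cells, Mki67 (686 against 568) and Top2a (823 against 570) were higher in histone-rich cells. Ccnb1 was higher in histone-poor cells, as were Prc1 (379 against 241), Kif23 (273 against 192) and Nusap1 (202 against 142). So were Aurkb (114 against 93.1) and Ccna2 (332 against 293). The median score was also higher in histone-poor cells, at 3391.57 against 2874.54. The replication gene Gins2 was at 30.3 in histone-rich and 41.8 in histone-poor cells. Cdk1 was near even, at 214 in histone-rich and 235 in histone-poor cells. Histone-rich cells were deeper, with a median of 8106 UMIs against 6568.5.

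Genes that mark spermatogonial states were mixed. Of 12 tested genes of undifferentiated spermatogonia, 5 were lower and 1 higher (median -0.58, against 8.57% of all genes lower). The list holds genes that the study chose for these cells and is not independent of them. Gfra1, the receptor subunit through which GDNF maintains stem cells, was at 189, 229, 149, 82.5 and 0 CPM in high-score cells and at 309, 321, 282, 144 and 181 in low-score cells. It was lower in all 5 libraries although the groups overlapped (log2 difference -0.75 ± 0.16, edgeR adjusted p = 0.000178). Ret, its signalling partner, was at 76.7, 77.6, 54.9, 64.2 and 93.7 against 114, 128, 130, 110 and 99.7, with no overlap (-0.79 ± 0.22, edgeR adjusted p = 0.00453). The transcription factor genes Etv5, Lhx1 and Sall4 were also lower, with log2 differences of -0.85, -0.95 and -0.56, and Etv5 and Lhx1 are known targets of GDNF signalling. Tex15 was higher by 0.52. With all other cells, not only low-score cells, as the comparison, no gene of this list passed. With the score from 2000 UMIs per cell 1 was lower and 1 higher, Gfra1 not being called, and with DESeq2 3 were lower and 1 higher.

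Zbtb16, the mutated gene, was at 56.0, 56.1, 66.7, 0 and 46.9 CPM in high-score cells and at 95, 69.4, 93.5, 21.4 and 9.06 in low-score cells. These were 19, 13, 17, 0 and 1 UMIs in high-score cells, so the Plzf lu/lu values rested on 1 UMI (class difference -0.57 ± 0.28, edgeR adjusted p = 0.157). Id4 (log2 difference 0.29) and Bmi1 (-0.05) did not pass and changed sign under other settings. Eomes, the gene of the reporter, had 12, 3, 4, 0 and 0 UMIs in high-score cells and 20, 14, 10, 0 and 0 in low-score cells, too few to be tested.

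Counted by cell in Plzf +/+ libraries, 17 of 81 cells with an Eomes UMI were high-score cells (21.0%, exact binomial 95% interval 12.7 to 31.5), against 81 of 753 cells without one (10.8%). By library these were 10 of 37, 3 of 25 and 4 of 19 against 30 of 270, 24 of 251 and 27 of 232, so the share with an Eomes UMI was the higher one in each of the 3 libraries. Cells with an Eomes UMI were also deeper, with a median of 7579 UMIs against 6030. With Eomes looked for in 2000 UMIs per cell, the counts were 5 of 29 (17.2%) against 93 of 805 (11.6%). For Pdx1, a transcription factor gene on the study's list, 15 of 74 cells with a UMI were high-score cells (20.3%), against 10.9% of the rest. The share was also higher with a UMI of Id4 (46 of 331, 13.9% against 10.3%), Bmi1 (53 of 401, 13.2% against 10.4%) and Pax7 (3 of 10, 30% against 11.5%). Other genes of the same list went the other way, with 5 of 72 cells with a Nanos2 UMI (6.94%) against 12.2% and 17 of 205 with a Lin28a UMI (8.29%) against 12.9%. So did Neurog3, with 2 of 27 (7.41%) against 11.9%, and Zbtb16, with 30 of 299 (10.03%) against 12.7%, the last in each of the 3 libraries. For T (brachyury) it was 16 of 131 (12.2%) against 11.7%, and for Gfra1 61 of 557 (10.95%) against 37 of 277 (13.4%). By library, in the order of plates 1, 2 and 4, the shares were 14.6%, 13.7% and 6.25% with a T UMI against 12.7%, 8.89% and 13.2% without one. They were 13.2%, 9.60% and 9.68% with a Gfra1 UMI against 12.6%, 10.3% and 16.7%. The direction was thus not the same in all 3 libraries for either gene, and the Gfra1 gap was largest on plate 4. In Plzf lu/lu libraries, 5 of 129 cells with a Gfra1 UMI were high-score cells (3.88%), against 14 of 204 without one (6.86%). These gene-positive groups were not tested against the rest.

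Of differentiating spermatogonia markers, 1 of 5 tested passed. Stra8, the retinoic acid response gene that precedes meiosis, was at 180, 108, 70.6, 257 and 281 CPM in high-score cells and at 38.5, 54.3, 47.3, 108 and 90.6 in low-score cells. It was higher in each library, although the groups overlapped (log2 difference 1.35 ± 0.22, edgeR adjusted p = 9.41e-08). With all other cells as the comparison it did not pass, at 0.18 (edgeR adjusted p = 0.589). Of 11 spermatocyte genes 2 were higher, the meiotic cohesin gene Smc1b by 0.86 and the chromosome axis gene Hormad1 by 0.92, set against 8.79% of all genes. DESeq2 called 1 higher and 2 lower, and without Plzf +/+ plate 1 there were 1 higher and 4 lower. Dazl, an RNA-binding protein of germ cells, was higher by 0.29 (edgeR adjusted p = 0.0395), in 4 of 5 libraries. It was the 1 called gene of 6 tested germ cell genes, whose median was -0.18, and no gene of that list was called higher by DESeq2, without any 1 of the 3 Plzf +/+ libraries, from 4000 UMIs per cell or without cells of over 2% other markers.

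Genes of spermatids, the haploid cells that condense into sperm, were lower in high-score cells for 7 of 10 tested (median -3.35), set against 8.57% of all genes lower. All 14 genes of the list together held 121, 624, 91, 22 and 5 UMIs in the high-score sums. Tested members thus passed the filter largely through low-score cells, so this count and median are not read as a result. Cabs1, Prm2, Oaz3, Lelp1 and Odf1 of spermatids were among the 10 genes with the most negative difference. Cabs1, a calcium-binding protein of elongating spermatids, was at 0, 8.62, 0, 0 and 0 CPM in high-score cells and at 84.9, 128, 119, 63.3 and 281 in low-score cells. It had 2 UMIs in all high-score cells and passed the filter through low-score cells, so its fitted fold depends on the prior count and is not given. Prm2, a protamine that replaces histones in sperm, and Odf1, of the sperm tail, were lower as well. With so few UMIs of the list in high-score cells, their fitted folds are not given either. The summed level of all 14 spermatid genes was 365, 2767, 347, 198 and 274 unscaled CPM in high-score cells and 2411, 10412, 7573, 3915 and 13565 in low-score cells, all 14 being detected in each low-score sum. Of the cells with over 2% of their UMIs from markers of other cell types, 2 were high-score and 34 low-score cells. Without them 415 genes were higher and 347 lower, and of the spermatid genes 5 could be tested, with 4 lower and a median of -0.87. Those cells were chosen by markers that include the spermatid list, and the 2 medians cover different genes, so they are given side by side only. The Sertoli list then had 1 tested gene and no call. The Sertoli markers summed to between 329 and 536 CPM in high-score cells and to between 502 and 1691 in low-score cells, 9 of 9 being detected in 4 of the 5 low-score libraries. Cst9, of Sertoli cells, was lower in high-score cells, with a log2 difference of -2.45. Markers of macrophages, Leydig cells and erythroid cells were near 0, at no more than 17.0 unscaled CPM in any sum, and those of T and NK, endothelial and peritubular myoid cells reached at most 150 unscaled CPM, so none of these 6 lists had a tested member. The Sertoli list also lost its call from 4000 UMIs per cell, without very deep cells, for the top 5%, when cells were ranked within each library and with all other cells as the comparison.

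The difference between high-score and low-score cells was then compared between genotypes by an interaction term, over 7748 genes. The difference was more positive in Plzf lu/lu for 6 genes (0.0774% of those tested) and more negative for 13 (0.168%) by edgeR, and 510 genes had an unadjusted p under 0.05. DESeq2 called 1 gene. Without Plzf +/+ plate 1 there were 10 calls, not all of them among those of the main fit, and without Plzf +/+ plate 2 there were 5. The median interaction of all genes was -0.21 on the log2 scale, and the values below are read against it. No gene of the kinase, spindle, kinetochore, anaphase, condensin or replication lists passed, with medians of 0.31, 0.05, -0.22, 0.15, -0.16 and -0.49. Of 27 tested histone genes 4 passed, all with a more negative difference in Plzf lu/lu. None of the 13 negative calls, these 4 included, was made by DESeq2, without either Plzf lu/lu library, for the top 5% or with all other cells as the comparison. Hist1h2ab was at 392, 453 and 353 CPM in Plzf +/+ high-score cells and at 128 and 0 in Plzf lu/lu, against 19.7 to 45.5 in low-score cells of all libraries. Its interaction was -2.42 (edgeR adjusted p = 0.00201). Summed over all histone genes the level was 5303, 4491 and 4336 unscaled CPM in Plzf +/+ high-score cells and 2527 and 2793 in Plzf lu/lu, and it did not overlap. In low-score cells it was 865, 551 and 731 against 1023 and 783. Without Plzf lu/lu plate 3, no gene passed the interaction test, by an edgeR adjusted p under 0.05, while 651 genes had an unadjusted p under 0.05.

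Within high-score cells the genotypes differed in 29 genes that were higher in Plzf lu/lu (0.514% of 5644 tested) and 21 that were lower (0.372%) by edgeR, whereas DESeq2 called 4 and 1. The Plzf lu/lu side was 19 cells, and the count moved with single libraries. Without either Plzf lu/lu library that genotype had 1 library, which is assumed to vary as the Plzf +/+ libraries do. Without Plzf lu/lu plate 3 there were 2 higher and 3 lower, without Plzf lu/lu plate 4 there were 60 and 47. Without Plzf +/+ plate 1 there were 8 and 7 and without Plzf +/+ plate 2 there were 12 and 7. Rps15a-ps8, a ribosomal protein pseudogene whose reads can be shared with Rps15a, was at 94.3, 73.3 and 130 CPM in Plzf +/+ and at 1036 and 1453 in Plzf lu/lu (log2 difference 3.52 ± 0.26, edgeR adjusted p = 5.32e-39). In low-score cells it was at 114, 135 and 163 against 1225 and 1296, a gap of like size. Malat1, a nuclear noncoding RNA, was at 2179, 1807 and 2732 against 376 and 563 (-2.41 ± 0.28, edgeR adjusted p = 1.87e-14). In low-score cells it was at 2930, 2274 and 2785 against 1077 and 1278. Ankrd12 was at 481, 298 and 279 against 64.2 and 93.7 (-2.37).

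No tested gene of the kinase, spindle, kinetochore, anaphase or condensin lists differed between genotypes by an edgeR adjusted p under 0.05. Of 36 replication genes 2 were lower in Plzf lu/lu: Clspn, an adaptor of the replication checkpoint, at 183, 246 and 149 against 36.7 and 93.7 CPM (-2.04, edgeR adjusted p = 0.0205), and Lig1, the ligase that joins Okazaki fragments (-1.22, edgeR adjusted p = 0.0109). Gfra1 had a log2 difference of -1.47 and did not pass (edgeR adjusted p = 0.0993). Zbtb16 had a log2 difference of -2.85 (edgeR adjusted p = 0.216). Egr4, a transcription factor gene of undifferentiated spermatogonia, was at 32.4, 25.9 and 74.6 against 238 and 0. Its log2 difference of 2.09 (edgeR adjusted p = 0.00264) was carried by Plzf lu/lu plate 3 alone. The other Plzf lu/lu library had 0 UMIs of it.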

How the data were processed

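Single sorted cells were measured by plate-based 3′ RNA sequencing with UMIs. The authors deposited tables of counts, UMIs per gene symbol and cell, for each genotype; the submitters' processing notes name bcl2fastq 2.18.0.12, STAR 2.5.4a, Picard 2.9.3 and the build GRCm38, with no role or order. No filter on cells is stated for the tables used here. Each cell was assigned to its library by the ending of its column name, and 5 of the plate 4 Plzf +/+ cells stood in wells labelled Plzf lu/lu. Well barcodes are reused between plates by design, so 358 of 376 barcodes occurred in more than 1 library, and none was shared by the plate 4 libraries. Library totals ran from 254514 to 2608702 UMIs.

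UMIs were summed per library and class (18261 to 331680 UMIs in high-score sums) and fitted with edgeR 4.0.16 (R 4.3.3; TMM, filterByExpr, robust quasi-likelihood), with Benjamini-Hochberg adjustment over all genes tested and a threshold of 0.05; DESeq2 1.42.0 was an alternative. The 8 score genes were kept out of the tests. Standard errors were derived from the fold and its F statistic. Shares were compared by an exact permutation test over libraries, with Clopper-Pearson intervals at 95%. The scripts were tested on simulated data. No doublet caller was run; cells of very high UMI count and cells with over 2% of UMIs from other cell types' markers were left out as alternatives. Motifs were searched in RefSeq promoters of GRCm38.p6, matched by symbol.

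The genes named were the 15 highest and 10 lowest differences between classes passing the test in 1 direction in each library with at least 5 high-score cells, all members of the fixed lists, up to 10 genes per direction for each genotype test, Zbtb16 and the study's 11 identity genes. The members and lists were chosen with earlier results of these data known. Of the list genes, 7 were not in the tables.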

Additional observations from a re-analysis of the deposited data

Results flagged for a closer look

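For 16 named genes the difference between high-score and low-score cells was itself different between genotypes, by the interaction term of the edgeR fit at an adjusted p under 0.05. The interaction is given as the log2 difference in Plzf lu/lu minus that in Plzf +/+. Among histone genes it was -2.42 for Hist1h2ab, -2.34 for Hist1h2ae and -1.15 for Hist1h4d, and among tubulin genes -1.13 for Tubb5. In Tubb5 the high-score levels were 1109, 1173, 918, 1027 and 937 CPM, and the low-score levels of the Plzf lu/lu libraries, 867 and 725, lay above those of Plzf +/+, 456, 442 and 390.

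Tuba1a (-9.63) and Tmsb4x (-8.65) had 0 UMIs in the high-score cells of both Plzf lu/lu libraries, so these fitted values depend on the prior count and give no size. For Clu, a secreted protein abundant in Sertoli cells, it was -4.16, with 516 UMIs in the low-score cells of Plzf lu/lu plate 3 and 2 in its high-score cells. The value was -4.19 for Atp1b1, -1.51 for Mybbp1a and -1.26 for Malat1. For Lyst it was 2.70, on 13 and 1 UMIs in Plzf lu/lu high-score cells.

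A group of unannotated transcripts ran the other way: Gm26870 at 3.31, Gm21738 at 2.14, Gm10801 at 1.63, Gm10717 at 1.63 and Gm10800 at 1.29. In the high-score cells of Plzf lu/lu plate 3, the top cell of each gene gave 77.7% of 247 Gm26870 UMIs, 51.6% of 285 for Gm10801, 52.5% of 668 for Gm10800, 56.0% of 116 for Gm21738 and 52.4% of 82 for Gm10717. Whether the top cell was the same for all of them was not checked. The fit was not repeated without such cells, and their part in these calls was not tested. Without cells of over 2% of UMIs from other cell types' markers, 8 of the 13 negative and 4 of the 6 positive calls were made again.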

How the results depend on the processing

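High-score cells differed by 524 higher and 511 lower genes, and these counts moved with the setting as follows. DESeq2 gave 282 and 323, the top 5% 166 and 190, the top 20% 892 and 919, and all other cells as the comparison 258 and 315; without the filter on low counts 1101 genes were lower. Leaving out 1 library gave 321 to 618 higher and 300 to 556 lower genes, the smallest without Plzf +/+ plate 2. The interaction count (19) was 1 with DESeq2, 12 without the filter, 2 for the top 5%, 37 for the top 20%, 9 with the score from 2000 UMIs, 5 from 4000 UMIs, 1 with all other cells and 0 to 16 with 1 library left out. The genotype count within high-score cells (50) was 5 with DESeq2, 33 without the filter, 6 for the top 5%, 82 for the top 20%, 24 from 4000 UMIs, 25 without cells of over 2% other markers and 5 to 107 with 1 library left out. The difference in share was -7.45 points for the top 20% and -8.10 from 4000 UMIs. The cause of these moves was not tested.

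Signs changed for Bmi1 between classes, at 0.073 (top 20%), 0.047 (from 4000 UMIs), 0.078 (without cells of over 2% other markers) and -0.23 to 0.094 with 1 library left out. They changed for Id4, at -0.0098 (top 20%) and -0.045 (score from 2000 UMIs). Between genotypes they changed for Egr4, at -6.24 to 2.41 with 1 library left out, the lowest without Plzf lu/lu plate 3, where Plzf lu/lu had 0 UMIs so that this value depends on the prior count and gives no size, and for Ldhc, at 0.10 when cells were ranked within each library. Of 511 class values of single genes under an alternative, 480 kept direction and side of the threshold, as did 122 of 256 interaction and 223 of 296 genotype values. The alternative without plate 4 cells outside their labelled wells was chosen after seeing the data.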
